A study of Mus musculus with 9 samples.

Results

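The mouse Hox genes were described as a family: the 39 protein-coding genes named Hoxa, Hoxb, Hoxc or Hoxd with a paralog number, of 53465 genes in the count table. They were found by symbol in the GENCODE M21 annotation of GRCm38, and all 39 had a row. The RNA came from cultured mouse adult fibroblasts (MAFs), connective-tissue cells grown from adult animals. The 9 libraries form 3 groups of 3: control cells, cells exposed to DPI for 24 h and cells exposed to DPI for 72 h. DPI is the agent as the labels write it, and neither its dose nor the handling or collection time of the controls is given in the sources used here. The series title names FMN cofactor targeting and respiratory complex I, the first enzyme of the mitochondrial respiratory chain, and the stated purpose was to see the effect of DPI at both times. The labels do not give the strain, the age or the body site of the cells. They also leave unsaid if replicates are separate cultures or animals, so the p-values below measure only the spread between libraries, which may be technical.

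Hox genes encode homeodomain transcription factors that give cells their position along the body. They lie in 4 clusters, A to D, in an order that matches the order of their domains from head (low paralog number) to tail or distal limb (high number). Fibroblasts of adult skin and other organs keep a pattern of HOX expression that reflects the site they came from, and they keep it in culture, which is called positional identity or positional memory. Silent parts of a cluster are held down by Polycomb proteins, and active parts are kept open by Trithorax proteins.

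Each library held 15292736 to 17923656 counts. Replicate 2 of the controls stood apart from its group, with a chi-square per degree of freedom of 34.6 and 29.2 to the other controls against 3.71 to 8.25 for the other pairs within a group. It held the highest control value of Hoxa2, Hoxa3, Hoxa5, Hoxa7, Hoxa10 and Hoxb9. In these cells 9 of the 39 Hox genes reached 1 CPM, the count scaled to a common library size, in at least 3 libraries, among them Hoxa2, Hoxa3, Hoxa4, Hoxa5, Hoxa6, Hoxa7, Hoxa10 and Hoxb9. The other 30 are called silent, by the threshold alone. The expressed genes were thus 8 of the 11 genes of the HoxA cluster and 1 of the 10 genes of HoxB, with 0 of 9 in HoxC and 0 of 9 in HoxD. HoxA held 92.1% of the 6748 Hox counts of the 9 libraries and HoxB held 7.85%.

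The HoxA cluster held an expressed run and a silent end, and 5 upstream sequences are shown to compare them. Each is the 250 bases before the start of transcription in the RefSeq promoter table (GRCm38.p6), 5′ to 3′, with every CpG dinucleotide in capitals. CpG is the site of DNA methylation, and dense CpG before a start site is where Polycomb complexes are known to be recruited at developmental genes. Hoxa5 was the member with the highest level per length in the controls, and Hoxa2 came closest to the threshold for a change between 24 h and 72 h. Hoxa10, shown for the longer of its models, was the last expressed gene of the cluster, and Hoxa11 and Hoxa13 were the silent genes beyond it.
Hoxa5: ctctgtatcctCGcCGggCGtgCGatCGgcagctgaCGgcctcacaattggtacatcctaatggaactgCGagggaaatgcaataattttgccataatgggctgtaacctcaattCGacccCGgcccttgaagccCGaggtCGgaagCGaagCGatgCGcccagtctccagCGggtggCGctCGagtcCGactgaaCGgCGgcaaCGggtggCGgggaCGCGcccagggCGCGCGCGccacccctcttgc
Hoxa2: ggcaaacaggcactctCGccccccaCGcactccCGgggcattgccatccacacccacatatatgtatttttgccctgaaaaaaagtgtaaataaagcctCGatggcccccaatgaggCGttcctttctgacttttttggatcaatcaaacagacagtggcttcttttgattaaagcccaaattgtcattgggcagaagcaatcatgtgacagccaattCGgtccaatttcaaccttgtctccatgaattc
Hoxa10: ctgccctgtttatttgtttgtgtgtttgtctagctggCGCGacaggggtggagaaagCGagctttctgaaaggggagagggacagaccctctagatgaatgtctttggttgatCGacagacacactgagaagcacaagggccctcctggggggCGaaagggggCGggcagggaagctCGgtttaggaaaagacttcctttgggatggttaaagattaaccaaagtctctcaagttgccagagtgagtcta
Hoxa11: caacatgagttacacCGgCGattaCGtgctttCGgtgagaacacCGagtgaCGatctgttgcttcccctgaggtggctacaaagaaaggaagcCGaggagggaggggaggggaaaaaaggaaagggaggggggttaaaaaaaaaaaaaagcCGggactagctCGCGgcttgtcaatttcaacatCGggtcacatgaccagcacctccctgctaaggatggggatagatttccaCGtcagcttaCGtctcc
Hoxa13: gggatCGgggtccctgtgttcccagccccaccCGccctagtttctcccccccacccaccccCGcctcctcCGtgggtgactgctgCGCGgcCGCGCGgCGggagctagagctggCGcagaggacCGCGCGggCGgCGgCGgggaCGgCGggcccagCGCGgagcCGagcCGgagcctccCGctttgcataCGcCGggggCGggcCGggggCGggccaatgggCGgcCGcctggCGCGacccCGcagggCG

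These windows lie on the minus strand of chromosome 6, at chr6:52204588-52204837 for Hoxa5, chr6:52164832-52165081 for Hoxa2, chr6:52240855-52241104 for Hoxa10, chr6:52245811-52246060 for Hoxa11 and chr6:52260881-52261130 for Hoxa13. The Hoxa11 window overlaps exons of Hoxa11os, a noncoding gene on the other strand. The number of CpG was 28 for expressed Hoxa5, 6 for expressed Hoxa2, 7 for expressed Hoxa10 (20 before its shorter model, not printed), 13 for silent Hoxa11 and 35 for silent Hoxa13. Counts per gene do not show which Hoxa10 model was transcribed. Among all 32851 windows of the table, 2.97% held at least as many CpG as the Hoxa13 window, 7.61% at least as many as that of Hoxa5 and 50.4% at least as many as that of Hoxa2. At least 1 CpG, which reads the same on both strands, was in 92.1% of all windows. The table held 22 of the 39 members in 24 windows. The 7 windows of 6 expressed members held 6 to 28 CpG (median 18), and the 17 windows of 16 silent members held 2 to 35 (median 12), against a median of 6 over all windows. The GC content had a median of 59.2% for expressed and 58.0% for silent members, with a range of 46.4% to 65.2% and 40.4% to 80.0%. The CpG and GC values of expressed and silent members overlapped. The window of Hoxa7, not printed, held 7.

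**Figure D1:**
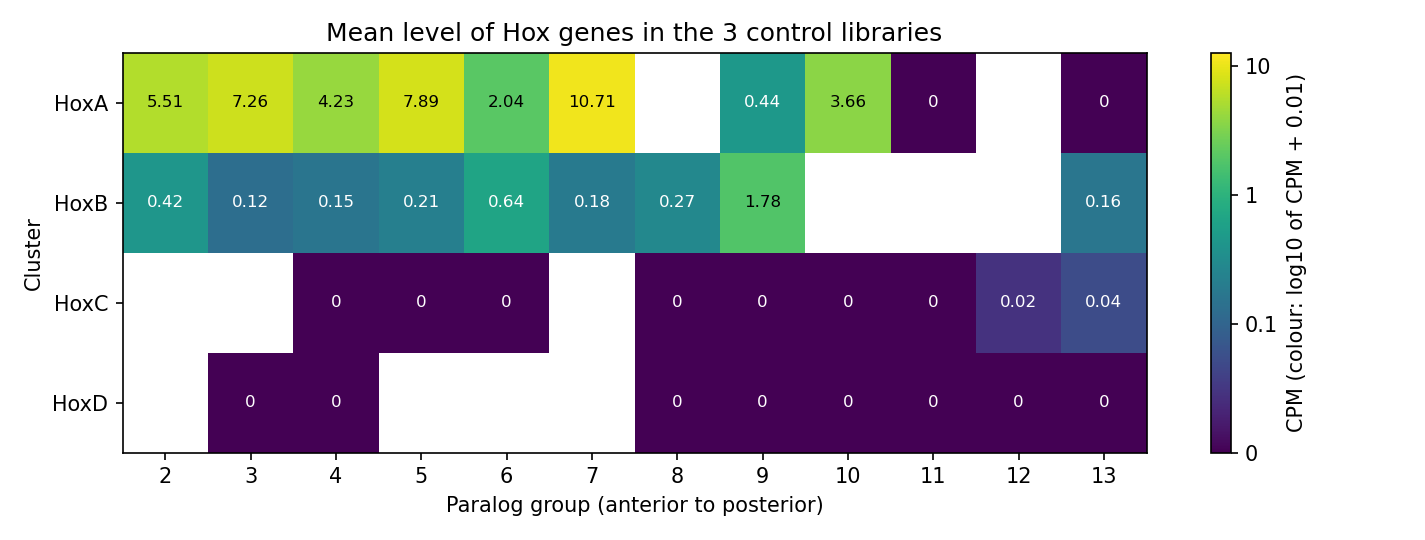
Mean CPM of the Hox genes of paralog groups 2 to 13 in the 3 control libraries, by cluster (rows) and paralog group (columns, from anterior to posterior); white cells are positions with no gene, and colour follows the log10 of CPM plus a small constant. The HoxA row carries levels of 2.04 to 10.7 CPM from group 2 to group 7 and 3.66 at group 10, HoxB reaches 1.78 only at group 9, and HoxC and HoxD are at or near 0.

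By position, the central genes (paralog groups 5 to 8) were expressed for 3 of 11 members and the posterior genes (groups 9 to 13) for 2 of 16. Within HoxA all 3 central genes were expressed, and of the 4 posterior genes Hoxa10 alone. The 9 expressed members were on at 1 CPM or more in every control library, and 7 of them in all 9 libraries. Hoxa6 was below 1 CPM in 1 library of DPI 72 h and Hoxb9 in 1 library of DPI 24 h.

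Levels between genes are compared per length, as RPKM, which is CPM divided by the exon length in kilobases, in the 3 controls. Hoxa5, which patterns the neck and upper thorax and acts in lung development, was highest at 4.201 ± 0.635 RPKM (SD, n = 3). Hoxa7, a gene of the thoracic skeleton, had 3.72 ± 0.298 RPKM (SD, n = 3), and its control libraries overlapped those of Hoxa5. Hoxa2, the selector gene of the second pharyngeal arch, had 3.11 ± 0.353 RPKM (SD, n = 3), below every control value of Hoxa7. Hoxa4, which acts in the cervical vertebrae, had 2.66 ± 0.321 RPKM and Hoxa6, a central gene, had 2.33 ± 0.388 RPKM (SD, n = 3 each). The control libraries of Hoxa2 overlapped those of Hoxa4, and Hoxa4 overlapped Hoxa6. A lower tier held Hoxa3 (1.21 ± 0.0677 RPKM), which is needed for thymus and parathyroid, and Hoxa10 (1.121 ± 0.308 RPKM), known for the lumbar skeleton and the uterus (SD, n = 3 each). Their control libraries overlapped, and all lay below those of Hoxa6. The place of Hoxa3 depends on its exon length of 6014 bases. By CPM in the controls Hoxa3 (7.26) stood above Hoxa2 (5.51) and Hoxa4 (4.23), and below Hoxa7 and Hoxa5 only. Hoxb9, known for the thoracic skeleton, was lowest at 0.692 ± 0.0506 RPKM (SD, n = 3), below every control value of Hoxa10. The whole set was expressed weakly: Hoxa5 lay at percentile 42.3 of the 14088 genes tested, ranked by control RPKM, and Hoxa3 at percentile 21.7.

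**Figure D2:**
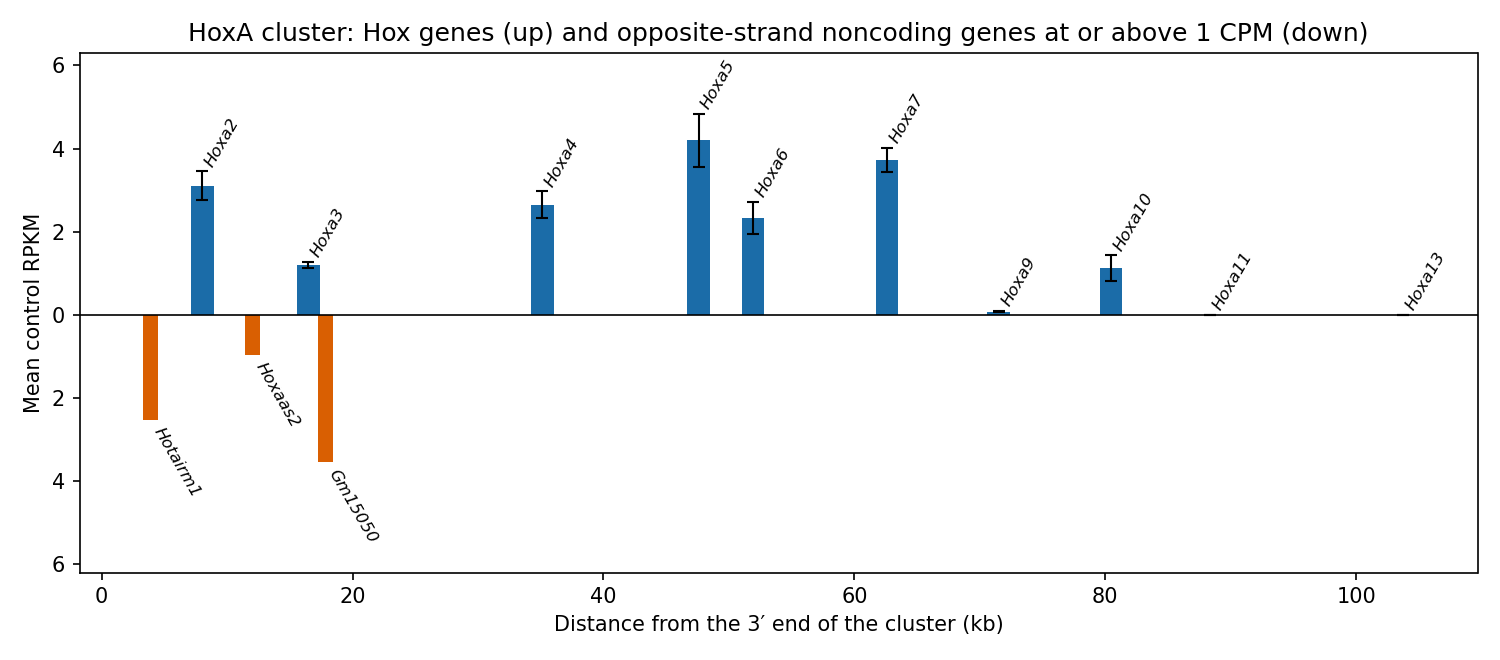
The HoxA cluster drawn to scale in kilobases from its 3′ end, with the mean control RPKM of Hox genes as blue bars upward (error bar: SD of 3 libraries) and of the noncoding genes at or above 1 CPM on the other strand as orange bars downward; each bar stands at the gene's middle except Hoxa3, drawn at its 3′ end because its gene model runs across Hoxa4 to Hoxa6. Expression covers Hoxa2 to Hoxa7, drops at Hoxa9, is present at Hoxa10 and is 0 at Hoxa11 and Hoxa13.

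The border of expression in HoxA fell between Hoxa10 and Hoxa11, whose gene models in the annotation are 1251 bases apart. Hoxa10 (chr6:52231197-52240854) had 45 to 87 counts in each library and 526 in all. Hoxa11 (chr6:52242106-52245810), a gene of the forearm, kidney and uterus, had 0 counts in each of the 9 libraries, as had Hoxa13 (chr6:52257694-52260880), a gene of the hand and foot plate and of the genital tract. Per length of exon, Hoxa10 was at least 123-fold higher than Hoxa11, taking 3 counts over the 9 libraries as the limit that a count of 0 allows. That limit equals 0.0201 CPM over the 149190462 counts of the series. It covers counting error only, since reads without molecular identifiers are not independent molecules.

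Hoxa9, a gene of the lower thoracic axis and of blood progenitors, broke the run of expressed genes. It had 2 to 16 counts in each library and 76 in all, and its gene model lies 107 bases from that of Hoxa10. Its CPM was 0.543, 0.331 and 0.448 in the controls, 0.612, 0.122 and 0.507 at DPI 24 h, and 0.182, 0.865 and 1.03 at DPI 72 h. Only 1 of the 9 libraries reached 1 CPM, and the 3 groups overlapped. Per length, summed over all libraries, Hoxa7 was 35.1-fold and Hoxa10 was 11.8-fold higher than Hoxa9.

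In HoxB only Hoxb9 was above the threshold. Hoxb6 came next, with 7 to 16 counts in each library and 0.422 to 0.988 CPM. Hoxb1, the hindbrain gene at the other end of that cluster, had 0 counts in all 9 libraries. The other silent HoxB genes, which are Hoxb2, Hoxb3, Hoxb4, Hoxb5, Hoxb7, Hoxb8 and Hoxb13, had a sum of 17 to 47 counts over the 9 libraries each. HoxC and HoxD together gave 4 counts for 18 genes in all 9 libraries. These 4 were 1 count of Hoxc6, 1 of Hoxc12 and 2 of Hoxc13, each in 1 library, and the other 15 genes had none. The genes at 0 are Hoxc4, Hoxc5, Hoxc8, Hoxc9, Hoxc10 and Hoxc11 and all 9 HoxD genes, Hoxd1, Hoxd3, Hoxd4, Hoxd8, Hoxd9, Hoxd10, Hoxd11, Hoxd12 and Hoxd13. With Hoxa11, Hoxa13 and Hoxb1, 18 members had no count in any library.

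The protein-coding genes around the silent clusters were mostly expressed. Beside HoxC, Atp5g2 (9.80 CPM in controls), Calcoco1 (33.0 CPM), Smug1 (21.6 CPM) and Cbx5 (516 CPM) were all above the threshold. Beside HoxD, Lnpk (54.6 CPM), Mtx2 (50.8 CPM) and Hnrnpa3 (682 CPM) were above it, and Evx2, a homeobox gene next to Hoxd13, had 0 counts in all 9 libraries. Beside HoxA, Snx10 (63.9 CPM), Skap2 (58.5 CPM) and Hibadh (44.7 CPM) were above it, and Evx1, the homeobox gene next to Hoxa13, also had 0 counts. Beside HoxB, Snx11 alone was above it (14.9 CPM), while Skap1 and Ttll6 had 39 and 16 counts in all 9 libraries and Calcoco2 had 0. At HoxC and HoxD the nearest protein-coding neighbours were thus expressed on both sides, apart from Evx2. Of these 16 flanking genes, Evx1, Evx2, Calcoco2, Ttll6 and Skap1 had too few counts to be tested. Among the others, Atp5g2 alone at 24 h and Calcoco1 alone at 72 h passed the test against controls, with adjusted p = 0.00980 and 0.0383 by edgeR. Of all genes tested, 24.7% were called at 24 h and 8.56% at 72 h.

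Inside the clusters the annotation lists 46 other genes, and 3 of them reached 1 CPM in at least 3 libraries, all in the anterior part of HoxA on the strand opposite to the Hox genes. Hotairm1, a noncoding RNA known from myeloid cells, had 2.47, 3.20 and 2.11 CPM in controls, 1.71, 1.83 and 2.14 CPM at DPI 24 h and 2.49, 4.14 and 3.48 CPM at DPI 72 h. Its 72 h and 24 h libraries did not overlap, and the difference had an adjusted p = 0.0545 by edgeR. Hoxaas2 had a mean of 3.25 CPM in controls and Gm15050 of 1.95 CPM, with adjusted p of 0.661 and 0.937 at 24 h and 0.880 and 0.994 at 72 h by edgeR. The 17 other genes within HoxC and HoxD had 2 counts in all. The 7 miRNA genes of the clusters are not described, as a library of long RNA does not measure mature miRNAs.

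Several members share exon sequence with other gene models, and the sources used here do not say whether the counting used strand, so their counts are uncertain in part. Among the expressed members the largest shares were 25.4% of exon bases with opposite-strand genes for Hoxa3, 20.4% for Hoxa7, with Hoxaas3, and 16.0% for Hoxa4. Hoxa3 shared a further 8.01% with models on its own strand, and Hoxa2 shared 15.04% with Gm28308 on the same strand. Hoxa5, Hoxa6, Hoxa10 and Hoxb9 shared none. Among silent members Hoxb3 shared 52.9% and Hoxa11 35.0% with opposite-strand genes, and Hoxd3 shared 62.3% and Hoxd4 52.3% with models on their own strand.

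The 24 h and 72 h comparisons ask whether DPI altered this pattern. In both, the same genes are set against the same 3 control libraries, so the comparisons are not independent. Of the 39 members 11 had enough counts to be tested: the 9 expressed genes, Hoxa9 and Hoxb6. The list passed a filter on low counts, so the 11 do not stand for all members. Overlap between the libraries of groups is given below as description, without its share over all genes. No member below 1 CPM in the controls reached it in all 3 libraries of a DPI group. The sum of all Hox genes was 48.3 ± 3.61 CPM in controls, 44.4 ± 1.11 CPM at DPI 24 h and 42.9 ± 0.964 CPM at DPI 72 h (SD, n = 3 each). It was 45.0 to 52.1 CPM in control libraries, 43.5 to 45.6 CPM at 24 h and 41.8 to 43.7 CPM at 72 h, so that 72 h lay below the controls while 24 h overlapped them. In bulk RNA, fewer expressing cells and less RNA per cell cannot be told apart.

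At 24 h, 0 of the 11 tested Hox genes passed an adjusted p of 0.05 in edgeR's quasi-likelihood test, while 24.7% of the 14088 genes tested did. DESeq2 and limma voom also called 0. An unadjusted p under 0.05 was reached by 2 of the 11, against 36.6% of all genes. Low counts bear on this: of the 4358 genes with a mean between 0.516 and 9.20 CPM, the range of the 11, 12.4% were called. The 11 changes ran from -0.74 to 0.40 on the log2 scale, with a median of -0.18 beside -0.01 for all genes, and 8 were below 0. Standard errors ran from 0.13 to 0.71, and the 95% confidence intervals reached from -1.65 to 1.49, so a fold change of modest size was not detectable for the weakest genes.

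At 72 h, 1 of 11 (9.09%) was called, beside 8.56% of all genes and 4.34% of genes in that CPM range. The calls over all genes, 1206, became 1965 without replicate 2 of the controls. It fell, as did 3.83% of all genes tested. The same gene was the only 1 of the 11 with an unadjusted p under 0.05, a level reached by 22.4% of all genes. The 11 changes ran from -0.50 to 0.64 with a median of -0.10, beside -0.01 for all genes, and 8 were below 0. Between 72 h and 24 h, edgeR called 0 of 11 beside 21.3% of all genes and 12.2% of those in the CPM range. An unadjusted p under 0.05 was found for 1 of 11, against 33.0% of all genes. DESeq2 called 0 and limma voom called 1, which was Hoxa2.

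**Figure D3:**
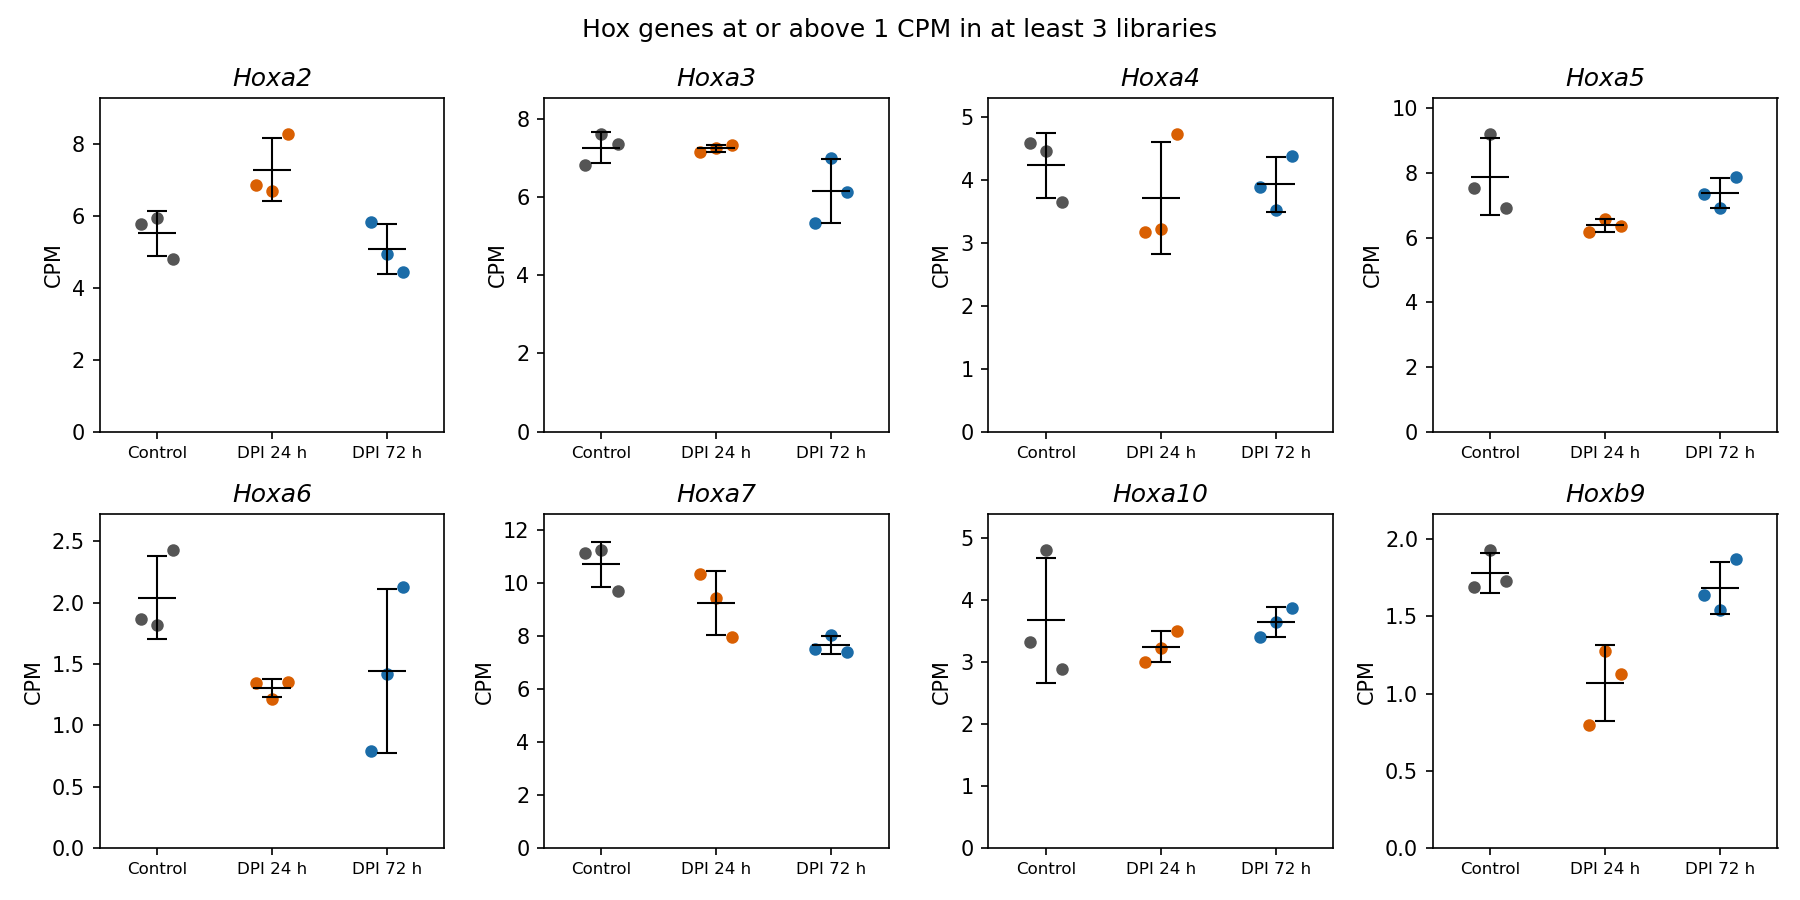
CPM of 8 expressed Hox genes in each library (points), with mean and SD of the 3 libraries of a group in black; every axis starts at 0. Hoxa7 is lower in all DPI 72 h libraries than in any control, and Hoxa2 is higher in all DPI 24 h libraries than in any other.

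Hoxa7 (ENSMUSG00000038236, chr6:52214491-52221854) was the called gene. It had 11.2, 11.3 and 9.72 CPM in the controls, 10.3, 9.44 and 7.95 CPM at DPI 24 h, and 7.53, 8.03 and 7.42 CPM at DPI 72 h. All 3 libraries of 72 h lay below all 3 controls, while those of 24 h spanned both. At 72 h Hoxa7 fell by 0.48 on the log2 scale, with an SE of 0.13, a 95% confidence interval of -0.78 to -0.19 and an adjusted p = 0.0476 by edgeR. At 24 h the change was -0.21 with an adjusted p = 0.270 (-0.12 without replicate 3 of DPI 24 h), and 72 h against 24 h gave -0.27 with an adjusted p = 0.189. The call held in 6 of 19 alternatives, with adjusted p from 0.0313 to 0.142. It was lost when any 1 library other than replicate 3 of DPI 24 h was left out, with changes between -0.55 and -0.45 and adjusted p between 0.0536 and 0.142 (-0.45 and 0.0722 without replicate 2 of the controls), and it was lost with the replicate block (-0.48, adjusted p = 0.0628).

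Hoxa2 (ENSMUSG00000014704, chr6:52162417-52164831) had 5.79, 5.96 and 4.80 CPM in the controls, 6.85, 6.70 and 8.29 CPM at DPI 24 h, and 5.83, 4.94 and 4.45 CPM at DPI 72 h. Its 24 h libraries lay above all others, and the controls and 72 h overlapped. The change at 24 h was 0.40 with an SE of 0.17 and an adjusted p = 0.112 by edgeR, and at 72 h it was -0.12 with an adjusted p = 0.745 and a range of -0.23 to -0.03 over the alternatives. The difference of 72 h from 24 h was -0.52 on the log2 scale (SE 0.17, 95% confidence interval -0.90 to -0.14), and the adjusted p = 0.0518 by edgeR missed the threshold. In 5 of 19 alternatives this difference passed, among them the fits without replicate 2 of the controls (adjusted p = 0.0329) and without replicate 1 of DPI 72 h (adjusted p = 0.0474). Over the alternatives its adjusted p ran from 0.0329 to 0.198.

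Hoxb9 (ENSMUSG00000020875, chr11:96271457-96276595), the only expressed HoxB gene, had 1.69, 1.93 and 1.73 CPM in the controls, 0.795, 1.28 and 1.13 CPM at DPI 24 h, and 1.64, 1.54 and 1.87 CPM at DPI 72 h. The 24 h libraries lay below all others. The change at 24 h was -0.74 (SE 0.30, adjusted p = 0.104 by edgeR), at 72 h -0.08 (adjusted p = 0.911, with a range of -0.16 to -0.02 over the alternatives), and from 24 h to 72 h 0.65 (adjusted p = 0.164). None of these passed, and the values rest on 13 to 35 counts in a library.

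Hoxa5 (ENSMUSG00000038253, chr6:52201754-52204587) had 7.54, 9.21 and 6.91 CPM in the controls, 6.18, 6.58 and 6.37 CPM at DPI 24 h, and 7.35, 6.92 and 7.87 CPM at DPI 72 h. The 24 h libraries lay below the others without overlap, and 72 h lay within the control range. The change was -0.31 at 24 h (SE 0.14, adjusted p = 0.151 by edgeR) and -0.10 at 72 h (SE 0.14, adjusted p = 0.754). Without replicate 2 of the controls it was -0.18 at 24 h and 0.03 at 72 h.

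Hoxa6 (ENSMUSG00000043219, chr6:52206288-52208722), the weakest HoxA gene above the threshold by counts, had 1.87, 1.82 and 2.43 CPM in the controls, 1.35, 1.22 and 1.35 CPM at DPI 24 h, and 0.789, 1.42 and 2.13 CPM at DPI 72 h. The 24 h libraries lay below all controls, and those of 72 h spread across both. The change was -0.64 at 24 h (SE 0.37, adjusted p = 0.238 by edgeR) and -0.50 at 72 h (SE 0.36, adjusted p = 0.475). The change at 72 h was -0.20 without replicate 1 of that group and -0.88 without its replicate 3.

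Hoxa4 (ENSMUSG00000000942, chr6:52189671-52191753) had 4.58, 4.47 and 3.65 CPM in the controls, 3.18, 3.23 and 4.74 CPM at DPI 24 h, and 3.89, 3.52 and 4.39 CPM at DPI 72 h. All 3 groups overlapped. The change was -0.19 at 24 h (SE 0.22, adjusted p = 0.578 by edgeR) and -0.11 at 72 h (SE 0.22, adjusted p = 0.828). The change at 24 h was -0.09 without replicate 1 of that group and -0.41 without its replicate 3, and at 72 h it ran from -0.21 to -0.03 over the alternatives.

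Hoxa3 had 6.81, 7.61 and 7.36 CPM in the controls, 7.16, 7.25 and 7.33 CPM at DPI 24 h, and 5.34, 6.98 and 6.13 CPM at DPI 72 h. The 72 h libraries lay below those of 24 h and overlapped the controls in 1 library, with a change of -0.24 against controls (adjusted p = 0.363 by edgeR), which was -0.15 without replicate 1 of DPI 72 h. Its interval at 24 h, -0.31 to 0.31, was narrower than that of any tested member but Hoxa7.

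Hoxa10 had 3.32, 4.80 and 2.88 CPM in the controls, 2.997, 3.23 and 3.50 CPM at DPI 24 h, and 3.40, 3.64 and 3.87 CPM at DPI 72 h. Its groups overlapped, and the change was -0.18 at 24 h (adjusted p = 0.610 by edgeR) and -0.01 at 72 h (adjusted p = 0.982). Without replicate 2 of the controls, the highest of the 9 libraries, it was 0.06 at 24 h and 0.23 at 72 h, on the other side of 0. The 95% confidence interval at 72 h was -0.51 to 0.48.

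**Figure D4:**
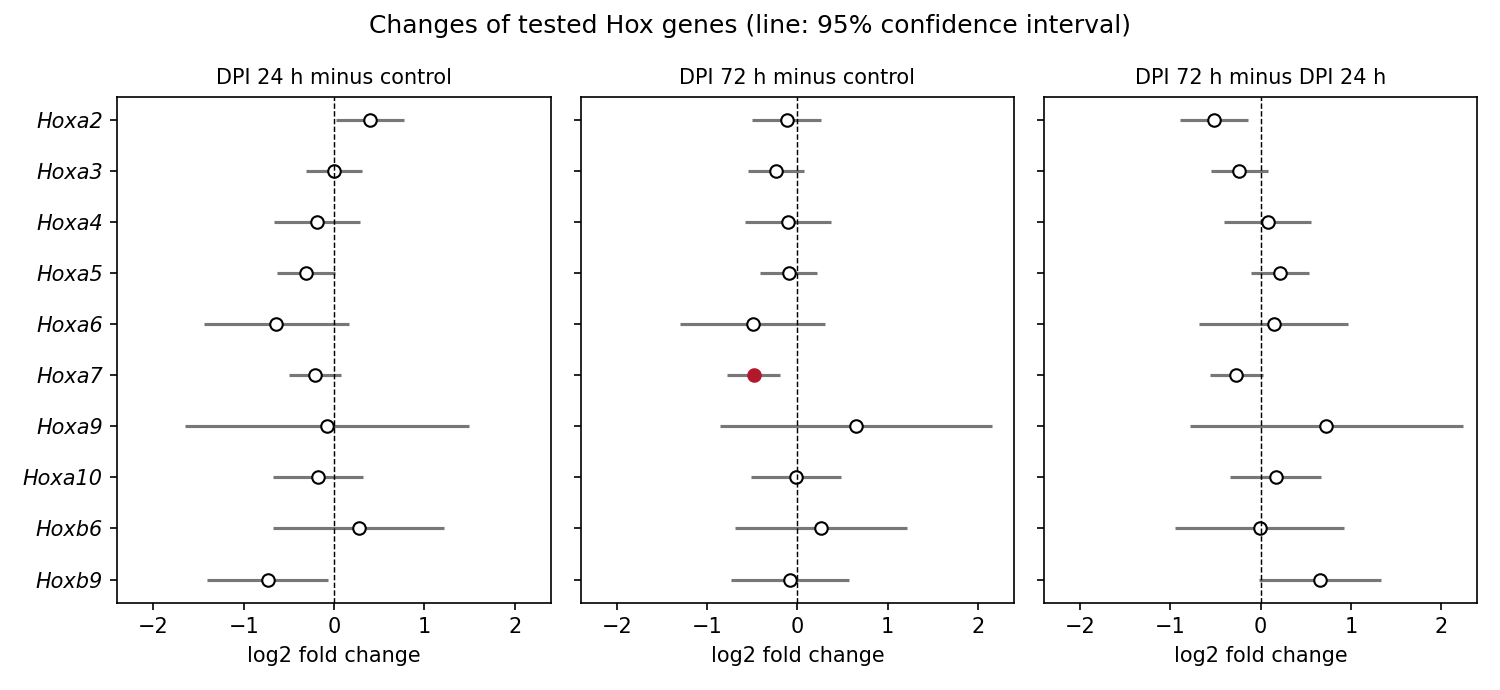
Log2 fold change of 10 tested Hox genes in the 3 comparisons (point) with its 95% confidence interval (line); the filled red point passed an adjusted p of 0.05. The filled point is Hoxa7 at 72 h, and the intervals of Hoxa9, Hoxa6, Hoxb6 and Hoxb9 are the widest.

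The central HoxA genes, Hoxa5 to Hoxa7, summed to 20.6 ± 1.61 CPM in controls, 16.9 ± 1.13 CPM at DPI 24 h and 16.5 ± 0.879 CPM at DPI 72 h (SD, n = 3 each). Every DPI library (15.7 to 17.9 CPM) lay below every control (19.1 to 22.3 CPM). Taken singly, Hoxa5, Hoxa6 and Hoxa7 did not pass at 24 h (adjusted p = 0.151, 0.238 and 0.270 by edgeR), and only Hoxa7 passed at 72 h. The posterior HoxA genes summed to 4.11 ± 0.927, 3.65 ± 0.329 and 4.33 ± 0.677 CPM (SD, n = 3 each), with overlap of 24 h and of 72 h with controls in the posterior sum. These sums are descriptions of blocks set with earlier results of these data known, and no test was run on them.

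HOX proteins bind DNA with partners of the PBX and MEIS families, and all 10 listed cofactor genes were expressed. The median change was 0.12 at 24 h and -0.02 at 72 h, beside -0.01 for all genes at both times. Without replicate 2 of the controls the cofactor medians were 0.03 and -0.01. At 24 h 3 rose and 2 fell, beside 12.4% of all genes that rose and 12.3% that fell. Without replicate 2 of the controls 3 rose and 1 fell, beside 4419 of 14421 genes called. Meis2 rose by 0.58 (SE 0.09, adjusted p = 0.000829 by edgeR), from 50.5, 42.1 and 50.1 CPM in controls to 66.4, 73.6 and 73.5 CPM, with no overlap. Meis1 rose by 0.47 (adjusted p = 0.00326) and did not overlap the controls. Pbx2 fell by 0.47 (adjusted p = 0.0156), a call lost without replicate 1 of DPI 24 h (adjusted p = 0.0669). Pbx4 fell by 0.88 (adjusted p = 0.0415), a call lost in 11 of 19 alternatives. At 72 h edgeR, DESeq2 and limma voom called 0 of the 10, beside 8.56% of all genes in edgeR. An unadjusted p under 0.05 in edgeR was reached by 6 of the 10, beside 22.4% of all genes. They went in both directions. Among them were Pknox1 at 0.28 (adjusted p = 0.0902), Meis1 at 0.25 (adjusted p = 0.124), Pbx3 at -0.28 (adjusted p = 0.0998) and Pbxip1 at -0.24 (adjusted p = 0.118). Without replicate 2 of the controls Pbx3 alone was called (-0.34, adjusted p = 0.0408), beside 1965 of 14421 genes. Meis2 was lower at 72 h than at 24 h (adjusted p = 0.00346), at 47.2, 52.6 and 54.8 CPM.

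All 31 Polycomb genes of the list were expressed. Ezh2, a methyltransferase of Polycomb complex 2, differed by -0.10 at 24 h (adjusted p = 0.175 by edgeR), and its partners Eed by 0.06 (adjusted p = 0.611) and Suz12 by -0.02 (adjusted p = 0.820). Ezh1, the other methyltransferase of that complex, fell by 0.51 (adjusted p = 0.00245). At 24 h 1 of the 31 rose and 7 fell, beside 12.4% of all genes that rose and 12.3% that fell, with a median change of -0.09 (-0.01 at 72 h). Phc2, a subunit of complex 1, rose by 0.65 (adjusted p = 8.15e-05). Pcgf5 fell by 0.32 (adjusted p = 0.00324). At 72 h 0 rose and 2 fell, beside 4.73% and 3.83% of all genes. Without replicate 2 of the controls 1 rose and 9 fell at 24 h, beside 4419 of 14421 genes called. In the same fit 0 rose and 3 fell at 72 h, beside 1965 of 14421 genes called. Cbx7, a chromobox subunit, fell by 0.82 (SE 0.16, adjusted p = 0.00974), from 8.32, 6.95 and 8.38 CPM to 4.07, 4.201 and 5.10 CPM, a call kept in all 19 alternatives. Cbx6 fell by 0.23 (adjusted p = 0.0281), a call lost in 10 of them.

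Of the 17 Trithorax and elongation genes 3 rose and 1 fell at 24 h, beside 12.4% and 12.3% of all genes, with a median change of 0.05 (0.01 at 72 h). Without replicate 2 of the controls 4 rose and 4 fell, and the median was -0.07 (-0.05 at 72 h, when 2 rose and 1 fell). Mllt3, a reader of active chromatin, rose by 0.58 at 24 h (adjusted p = 0.00117 by edgeR) and by 0.46 at 72 h (adjusted p = 0.0110), the only call of this list at 72 h, where 8.56% of all genes were called, lost without replicate 2 or replicate 3 of DPI 72 h (highest adjusted p = 0.0552). Mllt1 rose by 0.24 (adjusted p = 0.00894) and Rbbp5 fell by 0.32 (adjusted p = 0.0128). Kmt2a, the methyltransferase best known for keeping Hox genes active, had a difference of 0.28 at 24 h with an adjusted p = 0.377, and its control libraries ran from 71.3 CPM in replicate 2 to 149 CPM. Without replicate 2 the difference was 0.01 (adjusted p = 0.958). The 9 tested genes for CTCF, cohesin and cluster boundaries had median changes of 0.14 at 24 h and 0.15 at 72 h. Without replicate 2 of the controls these medians were 0.09 and 0.05. Among the 9, the cohesin subunit gene Stag1 rose by 0.51 at 24 h (adjusted p = 0.00374). It was the only call there (2 without replicate 2 of the controls). At 72 h edgeR, DESeq2 and limma voom called 0. An unadjusted p under 0.05 in edgeR was reached by 4 of the 9 at 72 h, beside 22.4% of all genes. The Cdx genes, which activate central Hox genes in the embryo, were at or near 0, with 0 counts of Cdx2 and Cdx4.

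Retinoic acid is the classic inducer of the anterior Hox genes. Of 18 genes of its pathway 9 were tested, and at 24 h 3 rose and 1 fell, beside 12.4% and 12.3% of all genes, with a median change of 0.20. At 72 h 1 rose and 0 fell, beside 4.73% and 3.83% of all genes, with a median of 0.03 (0.12 without replicate 2 of the controls). Rarb, a receptor gene and known direct target of retinoic acid, had 0.422, 0.221 and 0.128 CPM in controls, 1.53, 2.38 and 1.30 CPM at 24 h, and 0, 0 and 0.129 CPM at 72 h. The rise at 24 h was 2.71 on the log2 scale (SE 0.63, adjusted p = 0.00964 by edgeR), a call lost without replicate 2 of DPI 24 h (adjusted p = 0.0511), and the difference between 72 h and 24 h also passed (adjusted p = 0.00125). Rdh10, which makes retinaldehyde, rose by 0.66 (adjusted p = 0.000400) at 24 h. Rara rose by 0.49 at 24 h (adjusted p = 0.00138) and by 0.40 at 72 h (adjusted p = 0.0102), the latter lost without replicate 1 of DPI 72 h (adjusted p = 0.0515). Aldh1a2, the main enzyme of synthesis in the embryo, had 0 counts in all libraries.

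Other transcription factors that mark body position were also read. Of the 33 limb and trunk genes 20 were silent, among them Tbx4, Pitx1 and Lmx1b with 0 counts in all libraries, which are known for the hindlimb and the dorsal limb, and Tbx5, known for the forelimb, at 0 to 0.0645 CPM. Expressed were Prrx1 (207 CPM in controls), a marker of limb and head mesenchyme, Twist1 (73.6 CPM), Nr2f2 (66.4 CPM), Emx2 (44.0 CPM) and Tbx15 (38.8 CPM). At 24 h 5 of the 14 tested rose and 2 fell, beside 12.4% and 12.3% of all genes, and at 72 h 1 rose and 1 fell, beside 4.73% and 3.83%. The median changes were 0.14 and -0.05. Prrx1 rose by 0.60 (adjusted p = 0.000162 by edgeR), Nr2f1 by 0.74 (adjusted p = 0.00187) and Twist2 by 0.62 (adjusted p = 0.00557). Nr2f2 rose by 0.44 at 24 h (adjusted p = 0.00372) and by 0.70 at 72 h (adjusted p = 0.000473), with 65.7, 65.0 and 68.4 CPM in controls and 96.1, 124 and 103 CPM at 72 h. The 2 that fell at 24 h were Emx2 by 0.25 (adjusted p = 0.0126) and Shox2 by 0.32 (adjusted p = 0.0164). These calls were lost in 1 and 2 of 19 alternatives. Shox2 fell by 0.31 at 72 h (adjusted p = 0.0445), a call lost in 14 of 19 alternatives.

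Of the 28 head and visceral genes 14 were silent. At 24 h 1 of the 14 tested rose and 2 fell, and at 72 h 2 rose and 0 fell, against the same shares of all genes, with median changes of -0.12 and 0.13. Those that fell at 24 h were Dlx2 by 1.61 (adjusted p = 0.0120) and Pax9 by 0.30 (adjusted p = 0.0449), the latter lost in 14 of 19 alternatives. Foxd1 (29.3 CPM) and Gata6 (10.96 CPM) were expressed in controls and did not pass against them at either time.

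**Figure D5:**
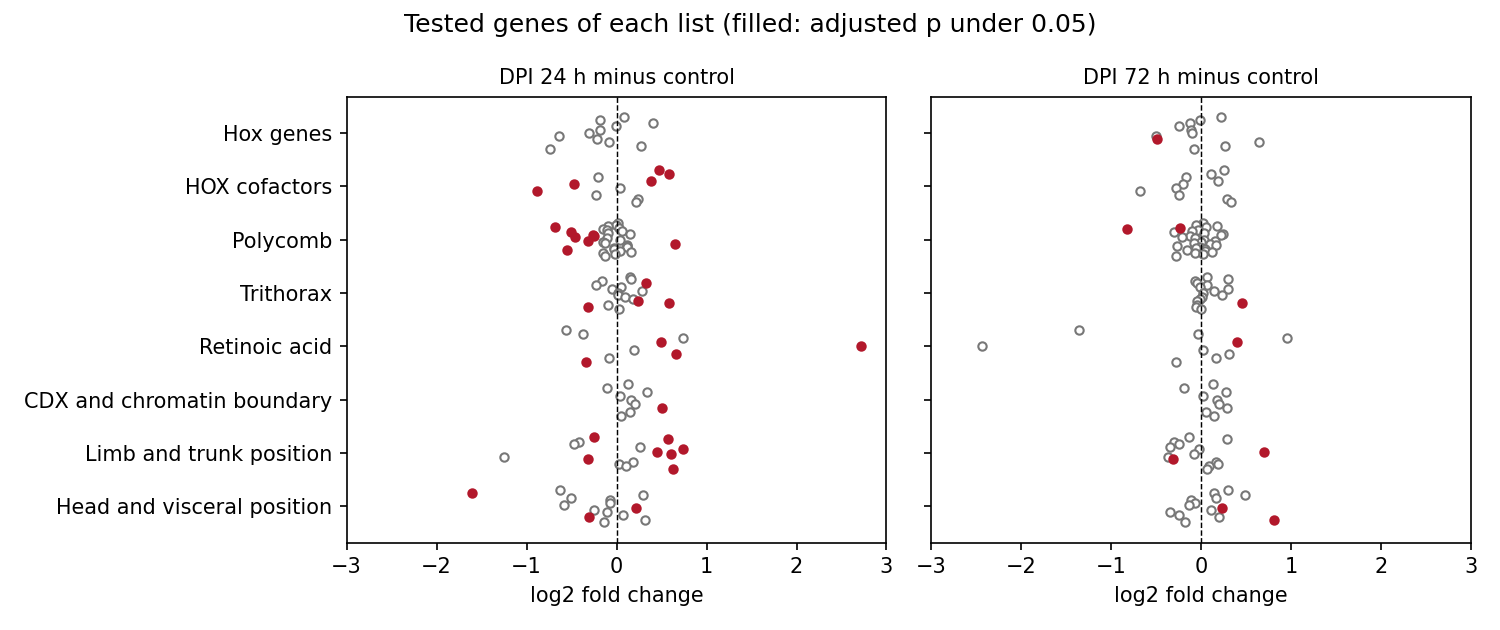
Log2 fold change of every tested gene, with the 11 Hox genes in the top row and the 7 lists of cofactors, chromatin regulators, retinoic acid genes and other position genes under it, at 24 h and at 72 h; filled points passed an adjusted p of 0.05. Calls are seen in all 7 lists at 24 h (32 of 104 tested genes, 30.8%) and fewer at 72 h (8 of 104, 7.69%). Of all genes tested, 24.7% were called at 24 h and 8.56% at 72 h. The Hox row has 0 of 11 and 1 of 11 (9.09%), where genes in its CPM range had 12.4% and 4.34%.

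Over the 7 lists, 32 of 104 tested genes (30.8%) were called at 24 h, 17 higher and 15 lower, and 8 (7.69%) at 72 h, 5 higher and 3 lower. Over all genes tested 24.7% were called at 24 h and 8.56% at 72 h. The median change was 0.02 at both times, beside -0.01 for all genes. The calls kept in all 19 alternatives numbered 19 of 32 at 24 h, and at 72 h 3 of 8, among them Cbx7 and Nr2f2. Whether Hox genes were called less often than these was not tested.

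The fibroblast label was checked against 13 markers. Col1a1 (1705 CPM in controls), Col1a2 (1919 CPM), Fn1 (2241 CPM), Vim (1644 CPM) and S100a4 (440 CPM) were high, and Pdgfrb was at 29.9 CPM. Thy1, Lum and Fap, also used to define fibroblasts, were silent, and Col3a1 (1.86 CPM) and Dcn (1.32 CPM) were low, so the cells lacked part of the usual set. The summed fibroblast markers ran from 7149 to 8637 CPM in controls, 13489 to 14149 CPM at 24 h and 11630 to 13078 CPM at 72 h. Of the 10 tested fibroblast markers 9 were called higher at 24 h and 4 at 72 h, beside 12.4% and 4.73% of all genes. Of 10 epithelial markers 7 were silent, with Krt5 at 0, and their sum, mostly Krt19, ran from 20.1 to 28.5 CPM in controls, 11.4 to 14.9 CPM at 24 h and 44.6 to 52.3 CPM at 72 h. Of 7 chondrocyte markers 5 were silent, and their sum, mostly Sox9 and Acan, ran from 46.5 to 48.4, 124 to 128 and 71.6 to 81.4 CPM. The 7 neural markers, mostly Tubb3, with Sox10 and Rbfox3 at 0, summed to 56.7 to 69.9, 45.2 to 46.2 and 90.1 to 97.2 CPM in the same order. The marker lists of endothelium, leukocytes, muscle and fat each summed to at most 9.81 CPM in any library, with Adgre1, Cd3e, Myog, Myh3, Adipoq, Lep and Cidec at 0. The part of these marker shifts in the Hox values was not tested.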

How the data were processed

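Total RNA of mouse adult fibroblasts was sequenced as 9 TruSeq libraries on a HiSeq2500, as the labels' protocols state. The tools named in the submitters' processing notes are edgeR, limma, RSEM, STAR, Trim Galore and cutadapt, with the GRCm38 build. Neither their roles and versions nor the strand setting are stated in the sources at hand. The authors deposited raw counts per Ensembl gene (whole numbers, 53465 genes), which were used throughout. A second deposited table of 17722 genes holds 159498 values, all equal to those counts, and served only as a gene set. Symbols came from GENCODE M21, with 191 IDs unmatched (0.0349% of counts).

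Genes passing edgeR's filterByExpr (14088, holding at least 99.9% of counts per library) were scaled by TMM and fitted with edgeR 4.0.16 (R 4.3.3, glmQLFit and glmQLFTest), all 9 libraries and 1 mean per group, two-sided, Benjamini-Hochberg over all genes tested, threshold 0.05. CPM uses TMM, and RPKM divides it by union exon length. Intervals are 95%. The script was tested on simulated data. The members, blocks and gene lists were chosen with earlier results of these data known. Full statistics are given for called members and the 5 of highest control RPKM, with list genes named among the 4 smallest p per list and time. Genes named beyond that rule (Hoxb9, Pbx4, Ezh2, Eed, Suz12, Kmt2a, Aldh1a2, Tbx4, Tbx5, Pitx1, Lmx1b, Cdx2, Cdx4, expressed position genes) were chosen after their values were seen. Some genes are not reported here. Alternatives were run with limma 3.58.1 and DESeq2 1.42.0 among others.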

Additional observations from a re-analysis of the deposited data

How the results depend on the processing

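Each alternative changed 1 choice at a time. The number of Hox genes called at DPI 24 h was 0 in every alternative. At 72 h it was 1 (Hoxa7), and it became 0 with no filter on low counts, limma voom, only the 2 groups compared, the replicate block, the genes of the second deposited table (chosen after seeing the data) and an adjusted p under 0.01. Leaving out 1 library at a time gave 0 to 1. For 72 h against 24 h it was 0, and it became 1 (Hoxa2) with library totals alone, limma voom and only the 2 groups compared, and 0 to 1 with 1 library left out. The cause of these changes was not tested. The number of expressed Hox genes, 9, was 11 at 0.5 CPM, 7 at 2 CPM, 7 at 1 CPM in all 9 libraries, 8 at 1 RPKM, and 9 with library totals or with any 1 library left out.

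The 7 lists held 32 calls at 24 h, which became 18 at an adjusted p under 0.01 and 23 to 39 with 1 library left out. The 8 calls at 72 h became 5 with only the 2 groups compared, 5 with the replicate block, 3 at an adjusted p under 0.01 and 4 to 11 with 1 library left out. The 24 calls of 72 h against 24 h became 42 with only the 2 groups compared, 12 at an adjusted p under 0.01 and 16 to 42 with 1 library left out, the highest without replicate 2 of the controls. The split of higher against lower calls moved with scaling: at 24 h from 17 against 15 to 16 against 19 with the upper quartile, and at 72 h from 5 against 3 to 4 against 4 with the upper quartile and 4 against 6 with library totals.

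No pairing of the samples by replicate number was seen, though with 3 libraries per group a weak pairing could be missed. Deviations from the group means of libraries with the same number correlated from -0.0925 to 0.00265, and those with different numbers from -0.0799 to 0.0943. The replicate block gave 29 list calls at 24 h, 5 at 72 h and 22 between the times, with 0 Hox genes in each. Depth limits the weak members: the 9 libraries together allow up to 0.0201 CPM for a gene with 0 counts, and the standard error of Hoxa9 was 0.71 on the log2 scale at 24 h.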
